A study of Homo sapiens with 4 samples.

Results

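HCT116 clone 9, a stable CST5 transfectant, was set against the parental un-transfected cells and against mock-transfected HCT116 cells. Of 24916 gene identifiers on the arrays, 15131 exceeded the 40th percentile of at least 2 arrays out of 4, and 119 of these were at least 2-fold from both controls in clone 9. These 119 comprised 52 identifiers that were higher and 67 that were lower. The comparison used 3 arrays, 1 for each line, and the fourth array, of CST5 clone 20, entered the filter and showed which differences a second transfectant shared. All 4 lines derive from HCT116, an established human colon carcinoma line, and the 2 CST5 lines are single clones, so effects of CST5 and of clonal selection cannot be told apart. The labels do not say if the mock line was cloned. With 1 array per line there was no replicate, no test was made, and every value below describes these arrays only.

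CST5 encodes cystatin D, a secreted inhibitor of the papain-like cysteine proteases, among them several cathepsins. Cystatins of this type occupy the active site of their target protease and block it reversibly. In colon carcinoma cells the gene is known as a target of the vitamin D receptor, and the study's title places the protein also in the nucleus and links it to gene expression. Clone 9 addresses the question of which transcripts differ in cells that carry the transgene.

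The deposited table identifies genes by Ensembl identifier, and 0 of the 24916 identifiers could be paired with a symbol in the reference table used here. The genes are therefore described by level, size of difference and behaviour in clone 20, and 4 are given by identifier. Without names, no row, printed or not, was assigned to CST5, to epithelial genes or to markers of other cell types. The transgene and the labelled cell type were therefore not checked by name. The row of CST5 itself may be among the identifiers described and counted below, the printed ones included. The values are read as log2 expression from their range of 1.03 to 12.7, with the log base not stated, and every fold rests on that reading. The median value per array was between 4.09 and 4.21.

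The 52 higher identifiers made up 0.344% of the tested rows and the 67 lower ones 0.443%. Because the threshold chose them, these shares describe the set and carry no weight beyond that. Each member was ranked by the smaller of its differences from the controls, which is the difference from the nearer control. The median of this smaller difference was 1.21 on the log2 scale (2.32-fold) for the higher identifiers and -1.19 (2.29-fold) for the lower ones, values that the threshold bounds from below. Over all tested rows the median difference of clone 9 from the control mean was -0.0032. The members crowded near the threshold: 33 of the 52 higher and 42 of the 67 lower identifiers were under 2.5-fold from the nearer control. The lower side reached further, with 12 identifiers at least 3-fold, 7 at least 4-fold and 2 at least 8-fold from both controls. On the higher side 7 were at least 3-fold, 4 at least 4-fold and 0 at least 8-fold from both. With the deposited values 43.7% of the members were higher. The share was 45.5% after quantile normalization and 44.4% after cyclic loess, but 32.0% (41 higher and 87 lower) after each array was centred on its median.

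**Figure D1:**
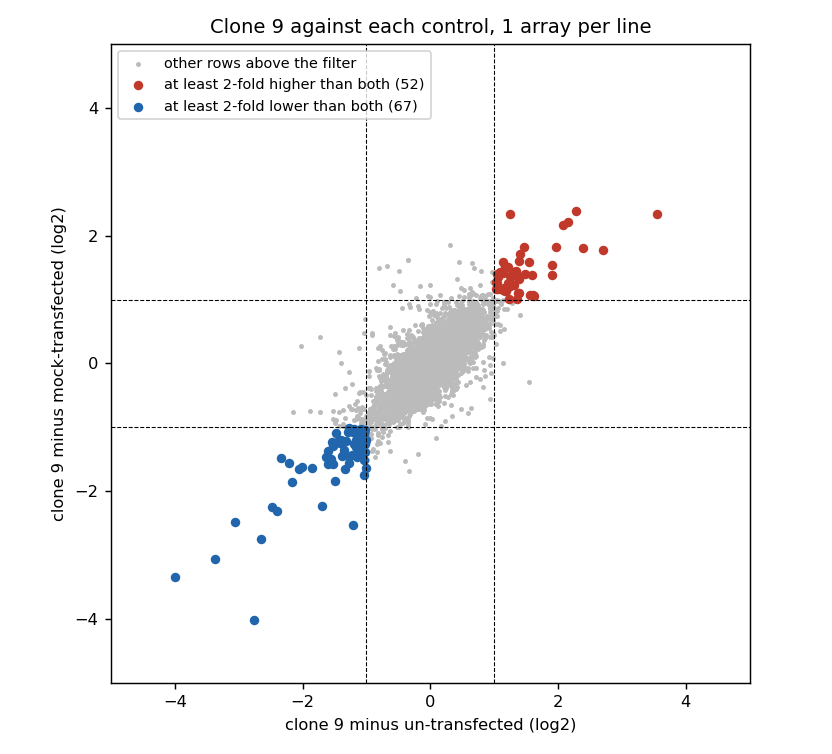
Difference of clone 9 from un-transfected cells (horizontal axis, log2) and from mock-transfected cells (vertical axis, log2) for 15131 gene identifiers, 1 point each, with dashed lines at 2-fold. The 52 red points are at least 2-fold higher and the 67 blue points at least 2-fold lower than both controls, and the blue points extend further from the origin.

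The threshold cut through a continuous range of values. Just inside it on the higher side were smaller differences of 1.01 for both of the nearest identifiers (2.01-fold and 2.02-fold), and just outside it were 0.998 and 0.989. On the lower side the nearest values inside were -1.005 and -1.008, and those outside were -0.998 and -0.995. Using a single control would have given a longer list. Clone 9 was at least 2-fold above un-transfected cells in 77 identifiers and above mock in 98, so the 52 were 67.5% and 53.1% of those lists. It was at least 2-fold below un-transfected cells in 121 identifiers and below mock in 99, so the 67 were 55.4% and 67.7% of those.

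ENSG00000147676 had the largest difference on the higher side. Its value was 10.1 in clone 9 and 10.7 in clone 20, against 6.56 in un-transfected and 7.77 in mock-transfected cells. Both clones lay above both controls, and the controls were themselves 1.21 apart on the log2 scale. Clone 9 was accordingly 11.7-fold above un-transfected cells but 5.06-fold above mock.

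ENSG00000170367 came next, with values of 6.48 in clone 9 and 7.32 in clone 20, against 4.20 in un-transfected and 4.09 in mock-transfected cells. Here the controls nearly coincided and the clones stood apart from them, clone 20 further than clone 9. The fold for clone 9 was 4.87 over un-transfected cells and 5.25 over mock.

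The third of the higher identifiers showed another arrangement. It read 5.08 in clone 9 and 3.50 in clone 20, against 2.92 in un-transfected and 2.86 in mock-transfected cells. Neither control exceeded its array's 40th percentile, so the row was tested only because both clones exceeded theirs. Clone 20 was just above its 40th percentile of 3.48 and stood much closer to the controls than to clone 9. The fifth read 5.38 in clone 9 and 3.12 in clone 20, against 3.41 in un-transfected and 3.56 in mock-transfected cells. In that case clone 9 alone was high, 3.52-fold above the nearer control, while clone 20 lay slightly below both. The eighth, a bright one, followed the same arrangement with 9.19 in clone 9 and 7.54 in clone 20, against 7.64 in un-transfected and 7.61 in mock-transfected cells.

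On the lower side ENSG00000135318 led. Its value was 3.73 in clone 9 and 5.72 in clone 20, against 7.73 in un-transfected and 7.07 in mock-transfected cells. The clones were both below both controls, and clone 9 minus clone 20 was -1.98 on the log2 scale. Clone 9 was 16.0-fold below un-transfected cells and 10.1-fold below mock, and clone 20 was 2.56-fold below the nearer control.

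ENSG00000019186 was second and was low in clone 9 alone. Its value was 4.73 in clone 9 and 8.54 in clone 20, against 8.10 in un-transfected and 7.78 in mock-transfected cells. Clone 9 was 10.3-fold below un-transfected cells and 8.31-fold below mock, and clone 20 was the highest of the 4 arrays.

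The third of the lower identifiers read 2.0003 in clone 9 and 6.48 in clone 20, against 4.76 in un-transfected and 6.01 in mock-transfected cells. Among the 119 it had the widest gap between the clones, with clone 9 minus clone 20 at -4.48 on the log2 scale, and its controls were themselves 1.25 apart. Clone 9 lay below the 40th percentile of its array there, so the fold of 6.78 from the nearer control may understate the difference. The sixth read 4.70 in clone 9 and 6.999 in clone 20, against 7.11 in un-transfected and 7.02 in mock-transfected cells. Clone 20 and both controls were nearly level in that identifier, and clone 9 was 4.98-fold below the nearer control.

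**Figure D2:**
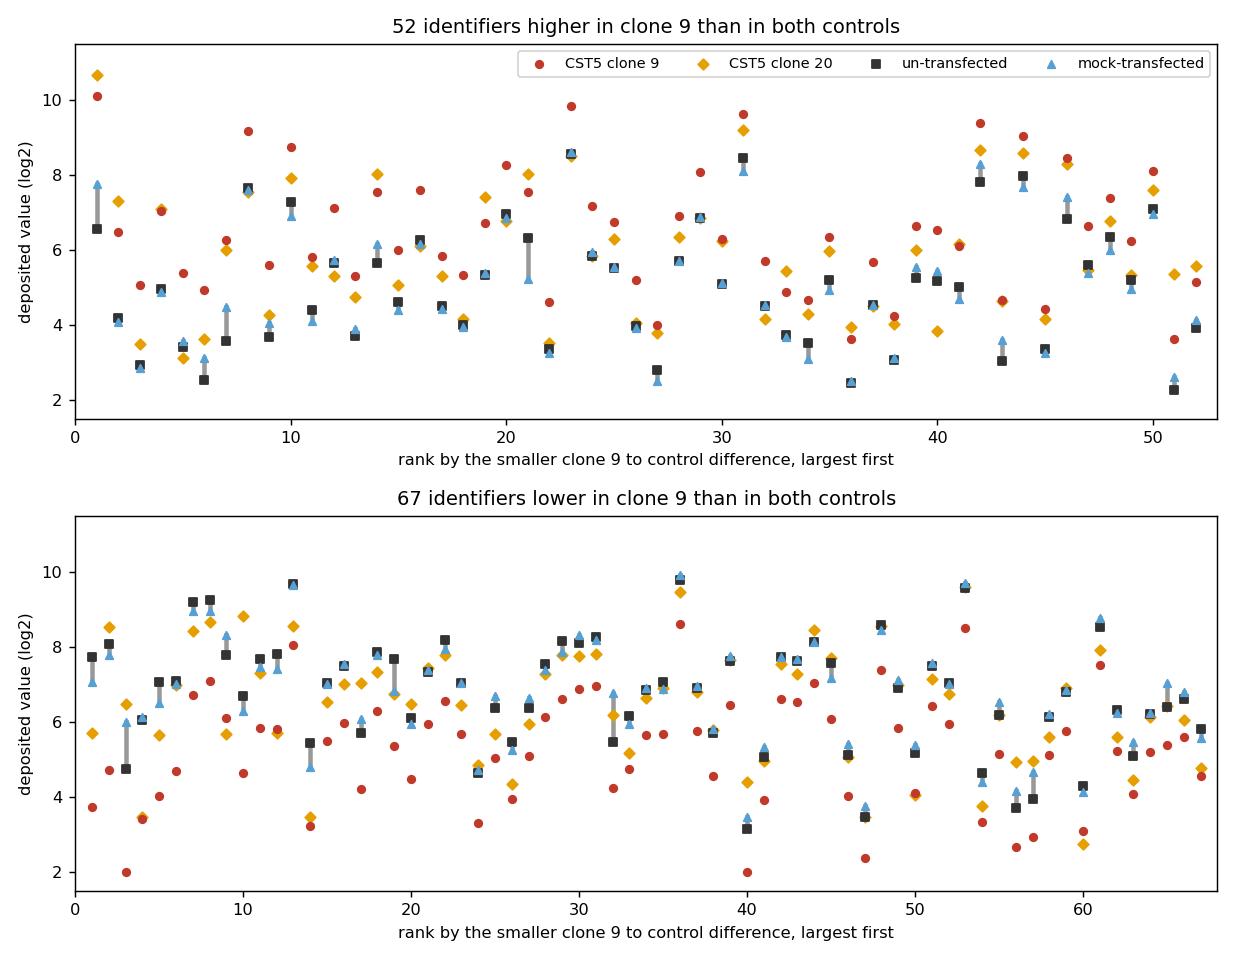
Deposited value (vertical axis, log2) of each of the 52 higher (top) and 67 lower (bottom) identifiers on the 4 arrays, ordered along the horizontal axis by the smaller clone 9 to control difference. Red circles are clone 9, orange diamonds clone 20, black squares un-transfected and blue triangles mock-transfected cells, and grey bars join the controls; the orange diamonds lie beside the red circles in some identifiers and beside the controls in others.

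Clone 20 was the other transfectant and was set against the same control arrays, so its differences from them are not independent of those of clone 9. An identifier was counted as shared when clone 20 was also at least 2-fold from both controls in the direction of clone 9. By this count 23 of the 119 were shared and 96, or 80.7%, were not. Clone 20 also entered the filter, so the filter set part of this count. In 6 higher identifiers both controls were at or below the 40th percentile. Such rows were tested only if clone 20 was above its own 40th percentile. Without the filter 105 of 128 identifiers, or 82.0%, were not shared. Among the 119, the shared ones were 15 of the 52 higher identifiers (28.8%) and 8 of the 67 lower ones (11.9%). Clone 20 had 45 identifiers at least 2-fold higher than both controls (0.297% of those tested) and 50 lower (0.330%), so the shared ones were 33.3% and 16.0% of its own lists.

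Among the 37 higher identifiers that were not shared, clone 20 lay above both controls, but under 2-fold from at least one of them, in 25. In 13 of these it was at least 1.5-fold above both. The median difference from the control mean in the 25 was 1.32 in clone 9 and 0.76 in clone 20 on the log2 scale. In 3 identifiers clone 20 lay between or level with the controls, and in 9 it lay below both. Those 9 had a median difference of 1.37 in clone 9 and -0.13 in clone 20, so most of these clone 20 values were only slightly below the controls. One of the 9 was an exception, at 6.53 in clone 9 and 3.83 in clone 20, against 5.16 in un-transfected and 5.44 in mock-transfected cells. It was at least 2-fold from both controls in each clone, in opposite directions.

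Among the 59 lower identifiers that were not shared, clone 20 lay below both controls, but under 2-fold from at least one of them, in 36. In 9 of these it was at least 1.5-fold below both. The median difference in the 36 was -1.29 in clone 9 and -0.47 in clone 20. Clone 20 lay between or level with the controls in 10 and above both in 13. The 13 had a median difference of -1.40 in clone 9 and 0.60 in clone 20. In 4 of them clone 20 was at least 1.5-fold above both controls, and in 1 it was at least 2-fold above both, with values of 4.65 in clone 9 and 8.84 in clone 20, against 6.70 in un-transfected and 6.30 in mock-transfected cells. Over all tested rows clone 20 lay below both controls in 41.4% and above both in 38.3%. The 9 and the 13 were 17.3% of the higher and 19.4% of the lower identifiers, and nothing is read from the distance to the shares over all rows, because the members were chosen against the same control arrays.

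**Figure D3:**
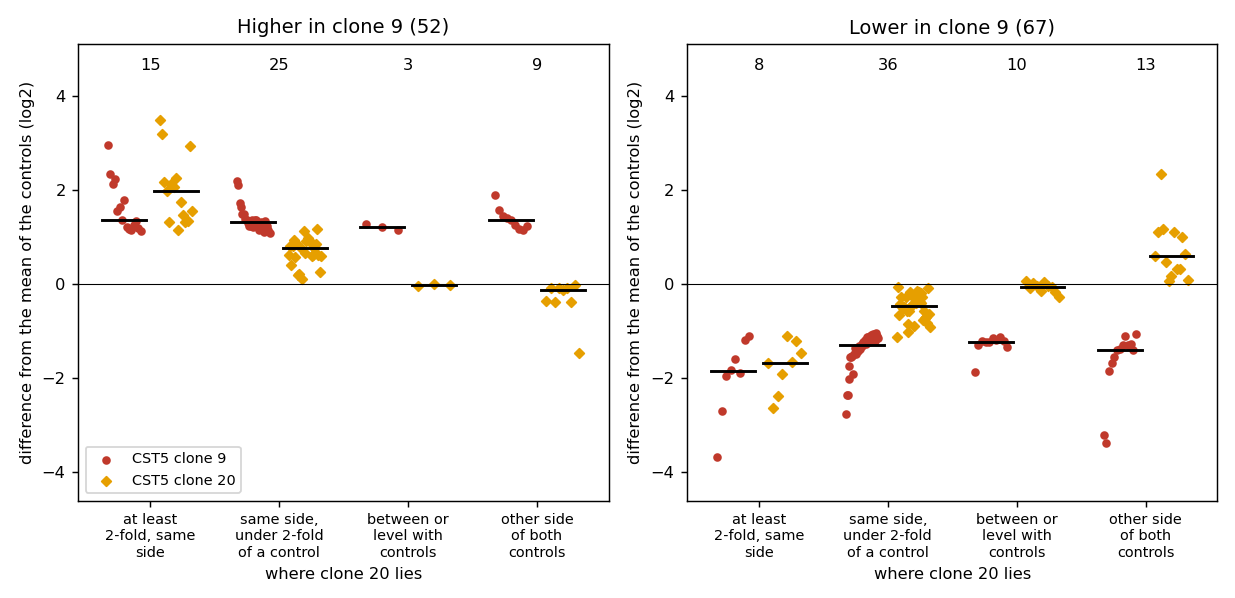
Difference from the mean of the controls (vertical axis, log2) of clone 9 (red circles) and clone 20 (orange diamonds) for the higher (left) and lower (right) identifiers, grouped along the horizontal axis by where clone 20 lay. Black lines are medians and the numbers at the top count identifiers; 15 of 52 higher and 8 of 67 lower identifiers fall in the shared group.

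The direct difference between the clones gave a stricter view. Clone 9 was at least 2-fold above clone 20 as well in 18 of the 52 higher identifiers, and at least 2-fold below it in 39 of the 67 lower ones. Over all tested rows clone 9 was at least 2-fold above clone 20 in 0.549% and below it in 0.661%. The members were chosen on the clone 9 array, so nothing is read from the distance to these shares. All 18 of the higher ones were among those not shared. Of the 39 lower ones 38 were not shared, and the remaining one was ENSG00000135318. In total 56 identifiers were thus neither shared nor close to clone 20. In the other direction, clone 20 was further than clone 9 from the controls in 11 of the 15 shared higher identifiers and in 4 of the 8 shared lower ones. The shared higher identifiers had a median difference of 1.36 in clone 9 and 1.99 in clone 20, and the shared lower ones -1.85 in clone 9 and -1.68 in clone 20. Over all members, the median difference of the higher identifiers was 1.33 in clone 9 and 0.79 in clone 20, and that of the lower ones was -1.32 in clone 9 and -0.28 in clone 20.

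The controls were compared with each other for the same identifiers. They were at least 2-fold apart in 4 of the 119, 2 on each side, and in 59 of the tested rows (0.390%). The median absolute difference between mock and un-transfected cells was 0.18 in the higher and 0.22 in the lower identifiers. Over all tested rows it was 0.11. Because the members were chosen against the same control arrays, nothing is read from these distances to all tested rows. In all 52 higher identifiers clone 9 was further from the nearer control than the controls were from each other. This also held in 66 of the 67 lower ones. The 2-fold threshold made that outcome nearly certain, because the controls were seldom 2-fold apart, so it carries no weight. Mock lay on the clone 9 side of un-transfected cells in 25 of the 52 higher and in 31 of the 67 lower identifiers. The split was thus near even in both directions, with mock only slightly less often the control nearer to clone 9.

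The levels of clone 9 and of the controls follow in part from the choice of members and are given as a description. The higher ones had a median value of 6.32 in clone 9 and 5.71 in clone 20, against 5.05 in un-transfected and 4.90 in mock-transfected cells. The lower ones had a median of 5.39 in clone 9 and 6.54 in clone 20, against 6.92 in un-transfected and 6.91 in mock-transfected cells. A value near the floor of an array can compress a fold. Both controls were at or below the 40th percentile in 6 of the 52 higher identifiers, and clone 9 was in 9 of the 67 lower ones. All 4 arrays exceeded their own median in 31 of the higher (59.6%) and 50 of the lower identifiers (74.6%). Matching shares over all tested rows are not given here, and the filter itself favours brighter rows. These counts are therefore not read as a trait of the members.

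The tested rows were then divided into 5 equal classes by their mean over the 4 arrays. From the dimmest to the brightest class the higher identifiers numbered 11, 13, 11, 7 and 10, and the lower ones 7, 9, 13, 21 and 17. Lower identifiers were most frequent in the upper classes, at 0.694% of the rows in class 4, and higher ones were spread over all classes. A dim row has less room to fall 2-fold, and the class mean includes the clone 9 value that chose the members. Nothing is therefore read from this spread. The median difference of clone 9 from the control mean over all rows moved with level, at 0.084 on the log2 scale in class 1 and -0.083 in class 5. Clone 20 gave 0.14 and -0.094 in the same classes, and mock minus un-transfected cells -0.027 and 0.036. The part of this trend in the members' directions was not tested.

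**Figure D4:**
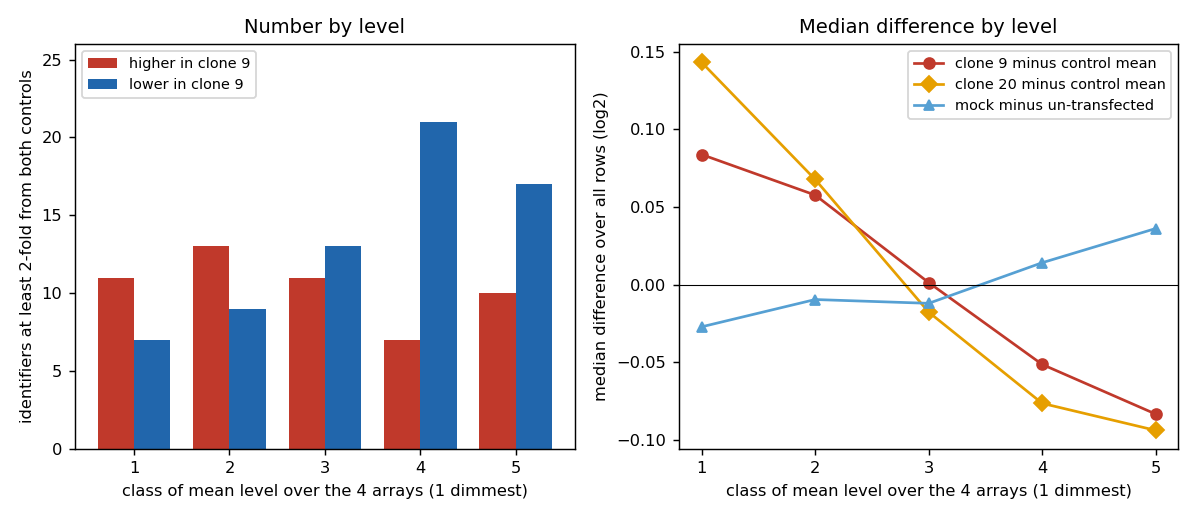
Left, number of identifiers at least 2-fold higher (red) or lower (blue) in clone 9 than in both controls, by class of mean level over the 4 arrays (horizontal axis, 1 dimmest to 5 brightest). Right, median log2 difference over all tested rows in the same classes for clone 9 (circles) and clone 20 (diamonds) against the control mean and for mock minus un-transfected cells (triangles); both clones read above the controls in class 1 and below them in class 5.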

How the data were processed

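RNA of 4 HCT116 lines was hybridised to Affymetrix arrays, 1 per line, from 100 ng of total RNA amplified in a two-cycle procedure and labelled with biotin, per the labels' protocols. The authors deposited 1 table of values taken here as log2 expression, 1 row per Ensembl identifier. Not given in the sources used here are the array model, summarisation, normalization, log base and annotation, and no probe-level values, detection calls or depth were used. The number of arrays limits the precision. Columns were mapped by the sample identifiers in the header, and arrays shared 207 to 265 identical values per pair, so none was deposited in duplicate.

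A row was tested if it exceeded its array's 40th percentile on at least 2 of 4 arrays. Members were at least 2-fold from both controls. The members and lists were chosen with earlier results of these data known. Because 0 identifiers could be paired with a symbol, the 32 gene lists and 8 marker lists were not run and no row was assigned to CST5. For the same reason, in each direction the 2 identifiers with the largest smaller difference are printed, and other members are given by rank. Ranks and groups were described without a test. The counting was tested on simulated data. Alternatives were 3 scalings (median centring, quantile normalization and cyclic loess, with limma 3.58.1 in R 4.3.3), other filters, folds and single controls. Figures were drawn with matplotlib 3.10.9 in Python 3.11.15.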

Additional observations from a re-analysis of the deposited data

Results flagged for a closer look

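In 9 of the 52 identifiers higher in clone 9 than in both controls, clone 20 lay below both controls, and in 13 of the 67 lower ones clone 20 lay above both. These are 17.3% and 19.4% of the members, against 41.4% and 38.3% of all tested rows with clone 20 on those sides. Nothing is read from that distance, because the members were chosen against the same control arrays. The 9 and the 13 are listed because clone 9 and clone 20 lay on opposite sides of both controls. In some of the 13 the clone 9 value was at or below its array's 40th percentile, so their folds are less certain. With 1 array per clone the difference was not tested. The median difference of clone 20 from the control mean was -0.13 on the log2 scale in the 9 and 0.60 in the 13. ENSG00000019186 was among the 13, with a difference of -3.81 on the log2 scale for clone 9 minus clone 20.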

How the results depend on the processing

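The counts of 52 higher, 67 lower and 96 not shared identifiers stayed within 1.5 times of these values under median centring (41, 87 and 106), quantile normalization (55, 66 and 101), cyclic loess (52, 65 and 97) and no filter (60, 68 and 105). Of the 52 and 67, 41 and 67 remained after median centring, 48 and 63 after quantile normalization, and 48 and 61 after cyclic loess. Raising the filter to the 60th percentile, and so testing fewer genes, left 34 higher identifiers. By construction, 1.5-fold gave 233 higher, 270 lower and 382 not shared, and 3-fold gave 7, 12 and 13. Likewise, mock alone gave 98 higher and un-transfected cells alone 121 lower. Requiring clone 9 to be at least 2-fold from clone 20 left 56 not shared. The smaller differences of the 4 printed identifiers moved by less than the standard deviation of mock minus un-transfected over tested rows (0.22) under the 3 scalings. Without symbols the gene lists were not run and no row was assigned to CST5. No paired analysis was possible because each line had 1 array and no replicate number in the labels. Background was not measured, so folds of dim identifiers are less certain.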
